A study of Oryza sativa with 12 samples.

Results

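JAZ6, JAZ7 and GH3.5, also called JAR1, are 3 rice genes of jasmonate signalling: a pair of repressors and the enzyme that makes the active hormone. They were chosen by annotation, as the probe sets listed for these genes by symbol or synonym, and with their values in these samples already known, so what follows about them is a description and no test. They are 3 of the 17905 genes that the array annotation pairs with a probe set, and each had exactly 1 probe set. JAZ6 is gene 4333065 (also TIFY10A, chromosome 3), read by a probe set of the kind that can match related transcripts. JAZ7 is gene 4343899 (also TIFY10B, chromosome 7). GH3.5 is gene 4339756 (chromosome 5). The rice JAZ genes carry colliding number schemes, and the synonym OsJAZ6 is attached to both repressors here, so the TIFY names are the unambiguous ones.

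The RNA came from embryonic axes of mature seed of the rice cultivar Nipponbare (the tissue label reads seed) and was hybridised to 12 Affymetrix Rice Genome Arrays. All seed first took up moisture for 3 days at 25 °C and 85% relative humidity. It then stayed at that humidity, for 14 days by the protocol or 15 by the description, at 25 °C (the control) or at 40 °C, and ended with 3 days at 32% relative humidity. Titles divide each temperature into a 0H and a 4H group, a suffix that the labels leave undefined, with 3 numbered replicates in each of the 4 groups. A 45 °C condition named in the labels was not analysed here. Nothing in the labels says that the replicates are separate seed lots, so p-values reflect only how far these arrays vary, and that variation may be technical.

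Jasmonate reaches its active form when the enzyme JAR1 joins jasmonic acid to isoleucine. The conjugate holds the F-box receptor COI1 and a JAZ protein together, the JAZ protein is degraded, and transcription factors that it had held back, through the adaptor NINJA and TOPLESS-type co-repressors, are released. JAZ genes are themselves known as early targets of the pathway, and in rice jasmonate is known for its part in wounding and defence responses, floret opening and the light responses of seedlings.

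All values are log2 signals, so 1 unit is a factor of 2, and they compare samples within a probe set and not genes with each other. A probe set was kept for testing if it lay above log2 4 in at least 3 of the 12 arrays, a filter limit and not a measured background, which 17650 probe sets did. The median signal of an array was 1.49 to 1.59, with 25.5% to 27.7% of probe sets over log2 4. Precision is limited by the number of arrays. In samples of whole axes, fewer cells of a type and less RNA per cell cannot be told apart.

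The 4 embryo markers with a usable probe set were OSEM, RAB21, VP1 and OSH1. Their summed signal on the log2 scale was 13.79 to 13.85 at 25 °C 0H and 13.81 to 13.89 at 40 °C 0H. At 4H it was 13.51 to 13.67 at 25 °C and 13.39 to 13.48 at 40 °C. VP1 went the other way, with means of 7.82 and 8.04 at 0H and 9.47 and 9.89 at 4H, at 25 °C and 40 °C in turn. OSH1, a homeobox gene of the shoot meristem, had a mean below log2 4 (3.78) in the 40 °C 4H group. The summed signal of 8 starchy endosperm genes was 9.74 to 10.96 at 25 °C 0H, 11.43 to 11.56 at 40 °C 0H, 10.16 to 11.45 at 25 °C 4H and 10.76 to 11.06 at 40 °C 4H, with the glutelins GLUA3 and GLUB4 below log2 4 on average in each group. The others did not move alike. At 0H means at 25 °C and 40 °C in turn were 6.46 and 8.76 for GBSS1, 9.17 and 10.61 for RA14 and 7.98 and 9.27 for PROLM25. For GLUA1, GLUA2 and GLUB5 they were 5.83 and 5.82, 6.39 and 6.42, and 7.19 and 7.32. At 4H GLUA1, GLUA2 and GLUB5 were lower at 40 °C (4.80, 6.11 and 6.71, beside 6.06, 6.94 and 7.54). GBSS1, RA14 and PROLM25 were higher (7.81, 10.01 and 8.65, beside 7.04, 9.79 and 8.43). For 2 alpha-amylase genes, AMY1A and AMY3D, the summed signal was 4.68 to 5.12 at 25 °C 0H and 5.36 to 5.62 at 40 °C 0H. At 4H it was 9.51 to 10.20 at 25 °C and 8.88 to 9.20 at 40 °C. Which cells gave this signal was not tested. The difference between the 3′ and 5′ control probe sets of Gapdh, a sign of RNA integrity, was 2.24 ± 0.17 (SD, n = 3) at 25 °C 0H, 3.66 ± 0.29 at 40 °C 0H, 2.34 ± 0.09 at 25 °C 4H and 2.77 ± 0.20 at 40 °C 4H. For Actin it was 2.44 ± 0.06, 3.33 ± 0.14, 2.97 ± 0.16 and 2.95 ± 0.15. The mean of 12 poly-A spike probe sets was 5.06 to 9.01 in the 40 °C 0H replicates and 2.69 to 6.45 in the other arrays. These measures thus move with temperature or with the suffix, and their part in the results below was not tested.

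JAZ6, a repressor of jasmonate-responsive transcription factors, was low in both 0H groups and high in both 4H groups, and at 4H it was higher in the axes kept at 40 °C. At 0H its signal was 5.85, 4.96 and 5.09 in replicates 1 to 3 at 25 °C (mean 5.30 ± 0.48, SD, n = 3) and 4.95, 4.96 and 4.78 at 40 °C (4.90 ± 0.10). At 4H it was 9.55, 9.66 and 9.99 at 25 °C (9.73 ± 0.23) and 11.13, 11.10 and 11.31 at 40 °C (11.18 ± 0.12). Every 4H array lay above every 0H array, and the 4H arrays of the 2 temperatures did not overlap.

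Between temperatures at 4H the JAZ6 difference was 1.45 (SE 0.18) on the log2 scale, 2.73-fold higher at 40 °C. At 0H it was −0.41 (SE 0.18), with groups separated by only 0.0083, and without replicate 1 of 25 °C 0H, the highest array of its group, it was −0.13. Leaving out single arrays gave −0.58 to −0.13, and JAZ6 was not called for temperature at 0H, so no difference is read from its 0H groups. Between 0H and 4H the JAZ6 signal was 4.43 higher at 25 °C (21.6-fold) and 6.28 higher at 40 °C (78.0-fold), and these changes differed by 1.85 (SE 0.25).

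JAZ7, the second of the repressors, showed the other order at 4H: it was highest in the control axes. At 0H all 6 arrays were below log2 4, at 2.73, 2.56 and 2.81 at 25 °C (2.70 ± 0.13) and 2.01, 2.81 and 2.07 at 40 °C (2.29 ± 0.44). With both means below log2 4 the difference is not read as a size, and replicate 2 at 40 °C lay inside the range of the 25 °C arrays. At 4H the signal was 6.98, 7.10 and 6.85 at 25 °C (6.98 ± 0.13) and 5.53, 5.56 and 5.69 at 40 °C (5.59 ± 0.085).

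The 4H groups of JAZ7 did not overlap, and the 40 °C mean was 1.38 lower (SE 0.18), a 2.61-fold difference against the direction of JAZ6. At 4H, JAZ7 was above its 0H level by at least 2.98 at 25 °C (at least 7.88-fold) and by at least 1.59 at 40 °C (at least 3.02-fold), counted from log2 4 because its 0H values fall below that limit. Counted from the measured values, the change at 40 °C was 0.98 smaller than that at 25 °C (difference −0.98, SE 0.26). JAZ7 passed the filter only through its 6 arrays at 4H, so it had to be higher there.

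GH3.5, the enzyme that conjugates jasmonic acid to isoleucine in rice, separated all 4 groups. Its signal at 0H was 5.55, 5.58 and 5.05 at 25 °C (5.39 ± 0.30) and 4.29, 4.32 and 4.32 at 40 °C (4.31 ± 0.015). At 4H it was 6.92, 7.37 and 6.98 at 25 °C (7.09 ± 0.24) and 8.67, 8.50 and 8.53 at 40 °C (8.57 ± 0.088). The order from low to high was 40 °C 0H, 25 °C 0H, 25 °C 4H and 40 °C 4H, and no neighbours in it overlapped.

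At 0H GH3.5 was 1.08 lower at 40 °C than at 25 °C (SE 0.14, 2.11-fold), with a gap of 0.72 between the groups. At 4H it was 1.48 higher at 40 °C (SE 0.14, 2.78-fold). The temperature difference of GH3.5 thus had opposite signs at the 2 suffixes. Its signal at 4H was above that at 0H by 1.70 at 25 °C (3.25-fold) and by 4.26 at 40 °C (19.1-fold), a difference of 2.55 (SE 0.20) between the changes. The highest signal of each of JAZ6 and GH3.5 was thus in the 40 °C 4H group, and that of JAZ7 in the 25 °C 4H group.

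**Figure D1:**
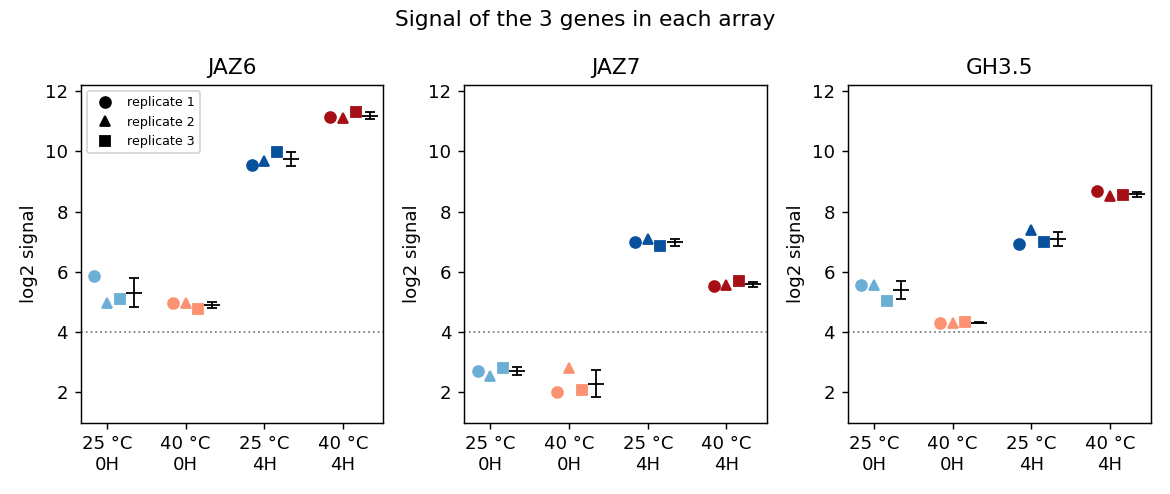
Log2 signal of JAZ6, JAZ7 and GH3.5 in each of the 12 arrays, by group. Points are arrays (1 shape per replicate), the black bar beside them is the group mean with its SD (n = 3), and the dotted line is the filter limit at log2 4. At 4H the 40 °C arrays lie above the 25 °C arrays for JAZ6 and GH3.5 and below them for JAZ7, whose 0H arrays all lie below the limit.

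Signals of many genes differed between these groups. In the limma fit over 17650 probe sets (Benjamini-Hochberg adjusted p under 0.05), 74.0% of all probe sets were called for temperature at 4H, and all 3 genes were among them, 2 higher and 1 lower at 40 °C (background 30.5% higher and 43.5% lower). For temperature at 0H 17.7% were called (5.99% higher and 11.7% lower at 40 °C), and GH3.5, lower, was the 1 of the 3 called. For 4H against 0H 81.9% were called at 25 °C (39.9% higher and 42.0% lower) and 87.2% at 40 °C (41.0% higher and 46.3% lower), with all 3 genes called as higher at both temperatures. For the difference of these changes 65.0% were called (28.1% higher and 36.9% lower), with all 3 genes called, JAZ6 and GH3.5 as higher and JAZ7 as lower. The groups did not overlap in 37.1% of probe sets for temperature at 0H and 76.3% at 4H, or in 81.9% and 89.4% for 4H against 0H at 25 °C and 40 °C. Since the genes were picked with these values known, nothing is read from their counts. The comparisons share groups, so they do not count as separate evidence of each other: the 25 °C 4H arrays, for example, enter both the temperature difference at 4H and the change at 25 °C.

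The array held 11 other JAZ genes, of which 7 passed the filter (JAZ1, JAZ3, JAZ4, JAZ10, JAZ11, JAZ12 and JAZ13) and JAZ2, JAZ5, JAZ8 and JAZ9 did not. At 4H 5 of the 7 rose at 40 °C and 2 fell, beside 30.5% of all probe sets called higher and 43.5% lower, with a median difference of 0.49 against −0.16 over all probe sets. Calls in both directions are what most probe sets show at 4H, so nothing particular to the JAZ genes is read from their presence here.

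JAZ10, like JAZ6 and JAZ4 read by a probe set of a kind that can match related transcripts, had 8.53, 8.71 and 8.32 at 25 °C 4H and 9.73, 9.65 and 9.64 at 40 °C 4H. It rose by 1.16 (SE 0.11, adjusted p = 3.15e-07). JAZ13 had 6.44, 6.90 and 5.54 at 25 °C 4H and 7.73, 7.57 and 7.16 at 40 °C 4H, a rise of 1.19 (SE 0.25). JAZ10 and JAZ13 are on the side of JAZ6, as are JAZ11, JAZ12 and JAZ4, which rose by 0.56, 0.49 and 0.42. JAZ3 had 6.06, 6.27 and 5.53 at 25 °C 4H and 4.77, 5.04 and 5.09 at 40 °C 4H, and fell by 0.98 (SE 0.18, adjusted p = 0.000200). JAZ1, on the same side as JAZ3 and JAZ7, fell by 0.71 (SE 0.11, adjusted p = 5.47e-05). The 25 °C and 40 °C arrays of these 7 genes did not overlap at 4H, as was the case for 76.3% of all probe sets.

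At 0H JAZ11 was the 1 JAZ gene of the 7 called, beside 17.7% of all probe sets called and 11.7% called lower. It was lower at 40 °C by 0.53 (SE 0.14, adjusted p = 0.0213), and its mean there was 3.93, below log2 4. It lost the call without replicate 3 of 25 °C 0H (adjusted p = 0.0533) or replicate 3 of 40 °C 0H (adjusted p = 0.0882). Between 0H and 4H at 25 °C 6 of the 7 rose (39.9% of all probe sets were called higher and 81.9% in either direction), with a median of 1.79, and JAZ1 did not pass the test (−0.12). At 40 °C 6 rose and JAZ1 fell by 0.64 (41.0% of all probe sets higher, 87.2% in either direction), with a median of 1.99. JAZ10 rose 9.16-fold at 25 °C and 21.5-fold at 40 °C, beside the 21.6-fold and 78.0-fold of JAZ6. JAZ13, like JAZ7, was below log2 4 at 0H and had to be higher at 4H, by at least 2.29 and at least 3.49. The change from 0H to 4H was larger at 40 °C for JAZ10, JAZ11, JAZ12, JAZ13 and JAZ4, and smaller or more negative for JAZ3 and JAZ1.

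**Figure D2:**
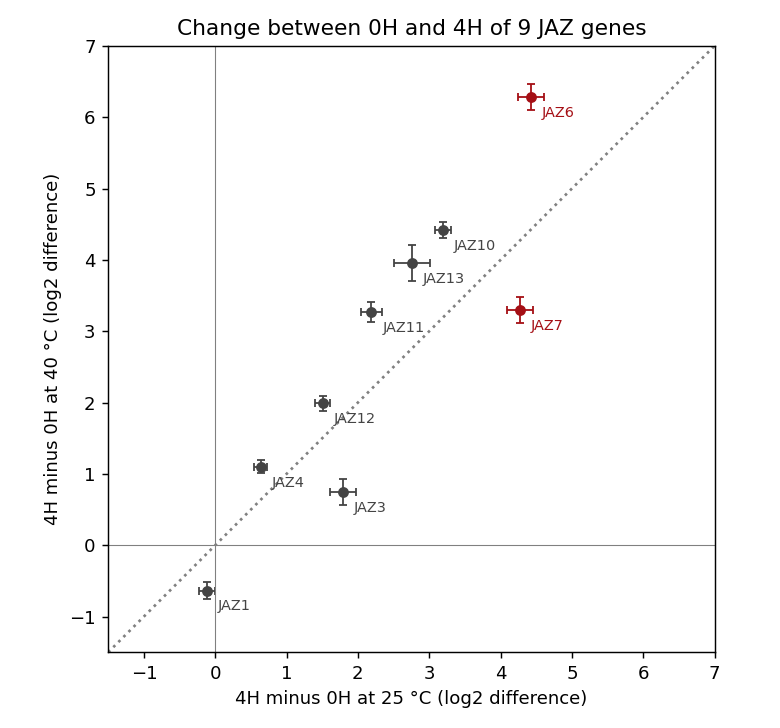
Log2 difference between 4H and 0H at 25 °C (horizontal) against that at 40 °C (vertical) for the 9 kept JAZ genes, with error bars for the SE and a dotted line where both are equal. JAZ6 lies above the line, at 4.43 and 6.28, and JAZ7 below it with JAZ3 and JAZ1; JAZ7 and JAZ13, below log2 4 at 0H, are drawn at their measured values, so their rank among the genes is not read.

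The other genes listed for the pathway, JAZ genes included, numbered 44 on the array, and 27 of them were kept. At 4H 11 rose and 11 fell at 40 °C, which is 81.5% called beside 74.0% of all probe sets. At 0H none rose and 9 fell (33.3% called, beside 17.7% of all probe sets called and 11.7% called lower). Over the alternatives run, the number called at 0H was 6 to 11. From 0H to 4H 18 rose and 3 fell at 25 °C (77.8% beside 81.9%), with a median of 1.31 against −0.04 over all probe sets. At 40 °C 18 rose and 8 fell (96.3% beside 87.2%), with a median of 1.36 against −0.13. The list was put together with results of these data known, and 4 of its kept genes (JAZ13, bHLH148, OPR5 and GH3.6) were above log2 4 only at 4H.

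Of the 6 receptor and co-repressor genes, the COI1 paralogues moved in opposite directions at 4H. COI1A fell at 40 °C at 4H by 0.86 (SE 0.09, adjusted p = 6.17e-07), with 7.75, 7.53 and 7.68 at 25 °C and 6.67, 6.85 and 6.87 at 40 °C. COI1B rose by 0.51 (SE 0.08, adjusted p = 2.92e-05), with 9.16, 9.19 and 9.26 at 25 °C and 9.63, 9.65 and 9.87 at 40 °C. COI2, the third receptor gene, was not called (0.08). NINJA1, the adaptor, and TPR2, a TOPLESS-related co-repressor, fell by 0.66 and 1.20, and TPR1, another TOPLESS-related gene, was not called (−0.17). The probe sets of NINJA1 and TPR2 can also match related transcripts. At 0H TPR1 fell by 0.51 and COI1B by 0.31 at 40 °C, and COI1B lost its call without replicate 1 of 25 °C 0H (adjusted p = 0.0600) or replicate 2 of 40 °C 0H (adjusted p = 0.0617). Between 0H and 4H COI1B rose at both temperatures (1.49 and 2.31), while COI1A fell at both (−0.67 and −1.57).

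bHLH148, a transcription factor known in rice to bind a JAZ protein, was below log2 4 in all groups but 40 °C 4H, where it had 5.30, 4.95 and 5.01. It was there at least 1.09 above 25 °C 4H, but it passed the filter only through these arrays, so it had to be higher there. The other listed factor that was matched, JAMYB, was not kept, and further names such as MYC2 and RERJ1 had no match in the annotation.

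**Figure D3:**
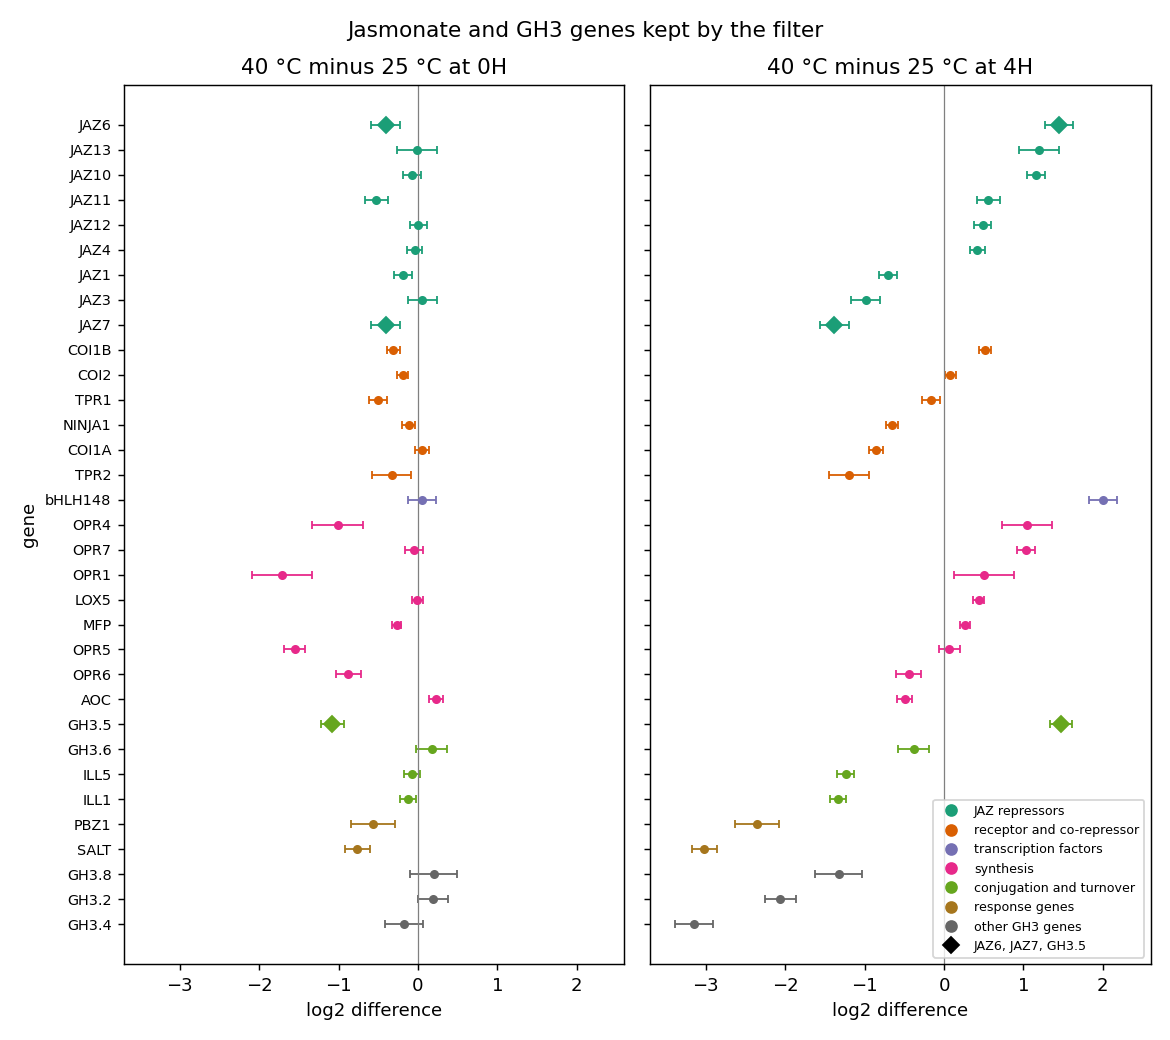
Differences in log2 signal between 40 °C and 25 °C at 0H and at 4H for the 30 kept genes of the pathway and 3 other GH3 genes, coloured by role, with error bars for the SE; values below log2 4 are drawn as measured. At 4H JAZ6 and GH3.5 lie right of 0, at 1.45 and 1.48, and JAZ7 left of it, at −1.38; at 0H GH3.5 lies at −1.08.

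For the synthesis of jasmonic acid, the substrate of GH3.5, 18 genes on the array were listed by name and 8 were kept. The OPR family includes the reductases of the jasmonate precursor, but whether OPR1, OPR4, OPR5 and OPR6 act in that step was not tested. OPR1 rose by 6.05 at 25 °C and by at least 7.71 at 40 °C, OPR4 by 5.51 and at least 7.09, and OPR5 by at least 5.83 and at least 5.90. OPR7, known in rice for the reduction step of jasmonate synthesis, rose by 0.61 and 1.69. LOX5, a lipoxygenase, rose by 1.41 and 1.85, while AOC, allene oxide cyclase, was not called at 25 °C (−0.17) and fell by 0.89 at 40 °C. The 4 allene oxide synthase genes (AOS1 to AOS4) were not kept.

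At 4H OPR7, OPR4, LOX5 and MFP (a beta-oxidation enzyme) rose at 40 °C by 1.03, 1.05, 0.44 and 0.26, the direction of GH3.5, and AOC and OPR6 fell by 0.50 and 0.45. The OPR6 call was lost without replicate 3 of 25 °C 4H (adjusted p = 0.0727) or replicate 2 of 40 °C 4H (adjusted p = 0.0886). It was also lost with arrays centred on their medians (adjusted p = 0.0670). At 0H 5 of the 8 listed genes fell at 40 °C, beside 11.7% of all probe sets called lower and 17.7% in either direction: OPR1, OPR4, OPR5, OPR6 (by 0.88) and MFP (by 0.27). OPR1 had 6.51, 4.70 and 4.28 at 25 °C 0H and was below log2 4 at 40 °C 0H, a fall of at least 1.16 that rested in part on replicate 1 (measured difference −1.71, and −1.04 without that replicate). OPR4 likewise had 5.64 in replicate 1, above both other replicates of its group (mean 4.54), and its difference of −1.01 became −0.47 and lost its call without replicate 1 (adjusted p = 0.0541), as it also did without any one of the 40 °C replicates at either suffix (adjusted p up to 0.137). OPR5 had group means of 3.67 and 2.11, both below log2 4. With values below log2 4 set to 4, none of OPR1, OPR4 and OPR5 was called at 0H (adjusted p = 0.0593, 0.282 and 1).

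That replicate 1 of 25 °C 0H was also the highest of its group for JAZ6, but not for JAZ7 or GH3.5. It was the highest in 14 of the 27 kept genes of the pathway (51.9%), beside 39.9% of all kept probe sets.

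Among genes that act on jasmonate conjugates, GH3.6, listed beside GH3.5 as a candidate conjugating enzyme, was below log2 4 at 0H and rose to 4H by at least 1.65 at 25 °C and at least 1.27 at 40 °C. Its 4H difference between temperatures was −0.38 (adjusted p = 0.085), which does not pass the threshold, beside the 1.48 of GH3.5. ILL1 and ILL5 belong to the amidohydrolases, a family whose members release hormones from amino acid conjugates in Arabidopsis. They fell at 40 °C at 4H by 1.34 and 1.24.

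The other GH3 genes on the array included GH3.2 and GH3.8, known for joining amino acids to auxin, and 3 of 7 were kept. At 4H all 3 fell at 40 °C, GH3.2 by 2.06, GH3.8 by 1.33 and GH3.4 by at least 0.93, beside 43.5% of all probe sets called lower and 74.0% in either direction. GH3.4 passed the filter only through its 25 °C 4H arrays, so it had to be lower at 40 °C. GH3.2 had 8.17, 8.21 and 7.77 at 25 °C 4H and 5.81, 5.87 and 6.28 at 40 °C 4H. GH3.5 was thus the 1 gene of the 5 kept GH3 genes with a higher signal at 40 °C at 4H, a description since it was chosen with this value known.

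Of the jasmonate-responsive genes, SALT, a lectin, fell at 40 °C at 4H by 3.02 (adjusted p = 9.62e-10) and PBZ1, a pathogenesis-related protein, by 2.36. SALT had 10.40, 10.52 and 10.25 at 25 °C 4H and 7.63, 7.19 and 7.28 at 40 °C 4H. Between 0H and 4H SALT rose by 1.03 at 25 °C and fell by 1.23 at 40 °C, while the signals of JAZ6 and GH3.5 were higher at 4H at both temperatures.

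Profiles across the 12 arrays were compared with those of 1687 named genes, each centred on its own mean, by the root mean square difference in log2 signal. JAZ6 and JAZ7 differed by 1.30, JAZ6 and GH3.5 by 1.24, and JAZ7 and GH3.5 by 1.14, so the 3 were not among each other's nearest. The nearest to JAZ6 were GSTU6 at 0.179, GRXS5 at 0.235 and RIBA2 at 0.259, where the median gene was at 2.82. GSTU6 had group means of 5.84 and 5.51 at 0H and 10.29 and 11.38 at 4H, at 25 °C and 40 °C in turn. The nearest to JAZ7 were AP2-1 at 0.247, Adh2 at 0.325 and TPP1 at 0.363 (median 2.03). AP2-1 had 2.40 and 2.12 at 0H and 6.37 and 5.28 at 4H. The nearest to GH3.5 were CLPD1 at 0.292, JMJ706 at 0.323 and PYL11 at 0.363 (median 1.75). CLPD1 had 6.16 and 5.30 at 0H and 7.51 and 9.38 at 4H, in the order of GH3.5. This likeness describes 12 arrays in 4 groups and was not tested.

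**Figure D4:**
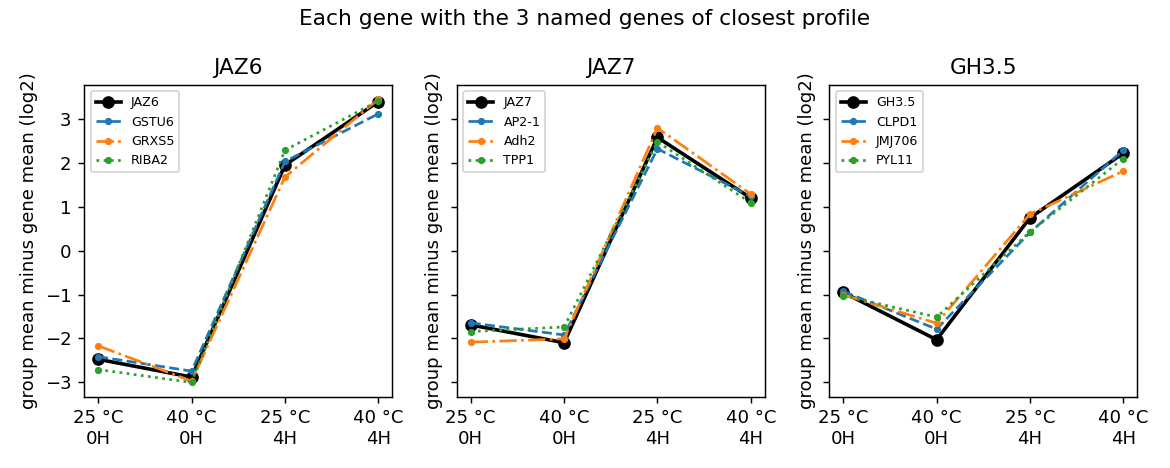
Group means of log2 signal minus the gene's own mean, in the 4 groups, for JAZ6, JAZ7 and GH3.5 (black lines), each with the 3 named genes of nearest profile. The lines peak at 40 °C 4H in the JAZ6 and GH3.5 panels and at 25 °C 4H in the JAZ7 panel, and the root mean square differences over arrays are 0.179 to 0.363.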

How the data were processed

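The deposited values are log2 signals per probe set that the authors made with GCRMA, per the submitters' processing notes; the version, the genome build and the log base are not given in the sources used here, and the base was read from the values. The tests leave out 123 control probe sets. From the deposited table, limma 3.58.1 in R 4.3.3 fitted 1 mean per group over all 12 arrays (8 residual degrees of freedom), with a variance trend, two-sided tests and Benjamini-Hochberg adjustment over the 17650 kept probe sets of each comparison. Tests on simulated data for the 0H temperature comparison over 17650 probe sets recovered 87 and 100 of 100 changed probe sets at log2 changes of 1 and 2, with 13 false calls.

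Of 57381 probe sets, 22436 were paired with 1 gene, 95 with several and 34850 with none in the annotation table; names came from RefSeq's table for rice assembly ASM3414082v1, and no coordinates are given. Of 164 list names 87 matched, to 61 genes, 58 of them with a probe set; a gene with several probe sets was read by the one with the highest mean.

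JAZ6, JAZ7 and GH3.5 and the lists were chosen with earlier results of these data known. Every JAZ and TIFY gene could be named, and from each other role up to 4 genes per comparison with the lowest p; genes of these lists named for a comparison where they ranked lower were chosen after their values were seen. Where all 3 arrays of the lower group were below log2 4, a change is given as at least the distance of the higher mean from 4.

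Whether replicate numbers pair the arrays was checked through the correlation of same-numbered deviations across probe sets: 0.126 to 0.423 for 4H against 0H at 25 °C, where all 3 passed the limit of 0.1, and −0.052 to 0.213 in the other comparisons, where not all did. In each of these comparisons the same number gave the highest correlation for only 2 of the 3 replicates. Any pairing would thus come from the data and not from the labels. Python 3.11.15, numpy 2.4.6 and matplotlib 3.10.9 drew the plots. Alternatives were other filters, scalings and variance models, a replicate block, a floor at log2 4 and leaving out each array.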

Additional observations from a re-analysis of the deposited data

Results flagged for a closer look

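Each gene here was picked out because its change from 0H to 4H differed between 40 °C and 25 °C by a test of that difference (limma, adjusted p under 0.05, which 65.0% of all probe sets passed). Values are the change at 40 °C minus the change at 25 °C on the log2 scale, with 3 arrays in each of the 4 groups. JAZ6, JAZ7 and GH3.5 were chosen with these values known and are given in the report.

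Of the JAZ genes, JAZ10 had 1.23, JAZ13 1.20, JAZ11 1.08, JAZ12 0.48 and JAZ4 0.46, the direction of JAZ6. JAZ3 had −1.04 and JAZ1 −0.52, the direction of JAZ7. The other TIFY genes, which are no JAZ repressors, had −0.39 (TIFY1A), −0.46 (TIFY2A) and −0.51 (TIFY2B).

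Of the receptor and co-repressor genes, COI1B had 0.82 and COI2 0.27, and COI1A had −0.90, NINJA1 −0.54 and TPR2 −0.87. The calls of COI2, TPR2 and TIFY1A were each lost when one or another of several arrays was left out, with adjusted p up to 0.0722 for COI2, 0.111 for TPR2 and 0.0879 for TIFY1A. Some of the other alternatives lost them too. Over all alternatives the call was lost in 8 of 20 for COI2, 10 of 20 for TPR2 and 11 of 19 for TIFY1A. The highest adjusted p was then 0.111, 0.111 and 0.123 in turn.

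Of the genes listed under synthesis, OPR1 had 2.22, OPR4 2.06, OPR5 1.62, OPR7 1.08, MFP 0.53 and LOX5 0.44, the direction of GH3.5, and AOC had −0.72. OPR1 and OPR4 were below log2 4 in all 40 °C 0H arrays. Their lowest values over the alternatives run were 1.54 and 1.51. With values below log2 4 set to 4, OPR5 had 0.07 (adjusted p = 0.634). The transcription factor bHLH148 had 1.95, and 1.09 with that floor, and was kept only through its 40 °C 4H arrays.

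The other GH3 genes had −2.25 (GH3.2), −2.98 (GH3.4, and −0.93 with the floor) and −1.52 (GH3.8), against the direction of GH3.5. GH3.4 was kept only through its 25 °C 4H arrays. ILL1 had −1.21 and ILL5 −1.16. Of the response genes PBZ1 had −1.79 and SALT −2.25 (adjusted p = 9.79e-07), and SALT was the 1 of these 30 genes whose changes were both called with opposite signs.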

How the results depend on the processing

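Each of the 3 genes kept the sign of its difference in every comparison under the alternatives run, save JAZ7 at 0H with values below log2 4 set to 4, where the temperature difference is 0 by construction. That floor also gave JAZ7 changes from 0H to 4H of 2.98 at 25 °C and 1.59 at 40 °C, and −1.38 for their difference. Leaving out single arrays moved JAZ7 at 0H from −0.66 to −0.26, its change at 40 °C from 3.16 to 3.56 and the difference of its changes from −1.12 to −0.72, with −0.66, 3.56 and −0.72 given by leaving out replicate 2 of 40 °C 0H; these rest on 0H values below log2 4 and are not read as sizes. At 4H the temperature difference lay between 1.35 and 1.57 for JAZ6, −1.46 and −1.29 for JAZ7, and 1.37 and 1.62 for GH3.5. The number of probe sets called for temperature at 0H, 3129, was 5558 with array weights and 2079 to 3847 without single arrays (2080 without replicate 2 of 25 °C 0H, 2079 without replicate 2 of 40 °C 0H); the cause was not tested. With the filter at log2 6, which tests fewer probe sets (11081), 9525 were called for 4H against 0H at 25 °C and 10045 at 40 °C, against 14457 and 15396. Of 125 called values of named genes, 112 were called under each alternative, 13 lost the call in at least 1, none reversed, and 12 uncalled values were called in at least 1. The replicate block, in which the fit has a term per replicate number, left the 3 genes' differences as they were, by its construction, called 22 genes of the pathway for temperature at 4H and 21 for 4H against 0H at 25 °C, and changed no count by over 1.5 times. Another scaling moved the median of all probe sets by at most 0.105, for 4H against 0H at 25 °C under quantile normalization. The share of called probe sets that were higher at 40 °C moved with it. At 0H it was 33.8%, 40.1% under quantile normalization and 43.2% with arrays centred on their medians. At 4H it was 41.2%, 44.6% and 46.5% in turn. Another probe set per gene could not be tried, since each of the 3 has 1.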
